A study of Mus musculus with 6 samples.

Results

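The genes described here are Mest, also known as Peg1, and 9 genes that flank it on mouse chromosome 6, namely Copg2, Nrf1, Ube2h, Klhdc10, Irf5, Podxl, Mkln1, Tnpo3 and Zc3hc1. They were picked by gene symbol in the probe annotation of the arrays, which gave 19 probes of the 21766 on an array, 1 for each of 9 genes and 10 for Tnpo3. The 10 genes are among 12576 genes that had a tested probe with a single gene name. The samples were cerebral cortices of single mouse embryos at stage E12.5. Mutant embryos had received from their father a Mest allele targeted with LacZ and without exons 3 to 8, and were compared with wild-type embryos. The allele came through the germ line, so that every tissue of a mutant embryo carried it. Each of 6 arrays set the RNA of 1 mutant cortex against that of 1 wild-type cortex. Mutants 3, 5 and 6 were labelled with Cy5 against wild types labelled 1, 8 and 9, and mutants 1, 4 and 7 with Cy3 against wild types 2, 8 and 9. The design lists wild types 2, 8 and 9 and no wild type 1, so the array of mutant 3 was taken to carry wild type 2. The sources used here give no strain, litter or sex.

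Mest encodes a membrane-associated protein with an alpha/beta hydrolase fold and is one of the classical imprinted genes. The promoter of the maternal copy is methylated and silent in most embryonic tissues, and the paternal copy is transcribed, strongly so in mesoderm and also in the developing brain. A deletion inherited from the father therefore removes the copy in use. Copg2, which encodes the gamma-2 subunit of the COPI coat of Golgi transport vesicles, lies next to Mest in the opposite orientation, and the annotated ends of the pair overlap in RefSeq's GRCm38.p6 gene table. The comparison asks how the level of Mest and of the genes around the targeted allele differed between mutant and wild-type cortex.

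The promoters of Mest and Copg2 are shown because they are the start sites of the targeted gene and of its immediate neighbour. Each stretch runs from 250 bases before to 50 bases after a RefSeq start on GRCm38.p6 and is written 5′ to 3′ on the strand of the gene, with each CpG dinucleotide, the site of DNA methylation in mammals, in capitals. No methylation was measured on these arrays.
Mest, upstream start, chr6:30733256-30733555, plus strand: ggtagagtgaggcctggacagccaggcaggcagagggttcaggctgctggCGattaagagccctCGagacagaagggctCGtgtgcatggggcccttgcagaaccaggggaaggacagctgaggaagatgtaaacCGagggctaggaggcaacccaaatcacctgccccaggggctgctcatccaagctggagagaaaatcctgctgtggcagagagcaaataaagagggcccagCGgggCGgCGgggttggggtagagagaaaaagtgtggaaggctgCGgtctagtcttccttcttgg
Mest, downstream start, chr6:30737800-30738099, plus strand: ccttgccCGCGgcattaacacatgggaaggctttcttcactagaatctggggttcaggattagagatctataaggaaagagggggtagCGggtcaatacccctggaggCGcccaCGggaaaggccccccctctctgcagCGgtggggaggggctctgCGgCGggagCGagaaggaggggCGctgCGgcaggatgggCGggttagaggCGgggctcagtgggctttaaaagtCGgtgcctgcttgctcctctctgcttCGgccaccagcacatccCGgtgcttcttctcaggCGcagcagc
Copg2, chr6:30896745-30897044, minus strand: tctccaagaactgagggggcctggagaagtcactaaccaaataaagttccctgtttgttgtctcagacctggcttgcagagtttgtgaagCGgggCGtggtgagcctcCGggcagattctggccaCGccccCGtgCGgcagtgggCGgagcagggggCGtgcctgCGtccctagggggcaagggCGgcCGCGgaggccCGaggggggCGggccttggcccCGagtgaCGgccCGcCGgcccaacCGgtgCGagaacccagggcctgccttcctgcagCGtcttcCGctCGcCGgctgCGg
The upstream Mest stretch holds 8 CpG and the downstream one 17, against 25 in that of Copg2 and a median of 7 over the 32851 promoters of the table. Another Mest start in the table lies 3 bases further downstream. Fewer CpG than in the downstream Mest stretch were found in 68.6% of promoters, and fewer than in that of Copg2 in 81.6%. Of the 10 members, 9 had a promoter in the table, and among all their listed starts the number of CpG ranged from 2, at a second start of Nrf1, to 43, at its first start.

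All ratios below are log2 of mutant over wild type, after the median of each array was set to 0. Between 16422 and 19564 probes of an array had a value, and the median of the deposited ratios ranged from -0.59 to 0.76 before centring. The deposited table does not state its direction. It was read as Cy5 over Cy3 from Mest itself, whose deposited values of -1.10, -1.02 and -1.21 with the mutant in Cy5 turned to 1.49, 1.49 and 1.73 with the mutant in Cy3. That Mest was lower in mutants is thus part of the reading, which cannot test it. Precision is limited by the number of arrays. Spot intensities were not used, so that the expression level of a gene, the presence of cortical markers and the saturation of a spot could not be assessed.

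Mest lay below 0 on every array. It had a ratio of -1.36 in mutant 3, -1.78 in mutant 5 and -1.39 in mutant 6, and of -1.50 in mutant 1, -2.07 in mutant 4 and -1.44 in mutant 7. On a linear scale the mutant signal was 0.238 to 0.390 of that of wild type. The values of both dye orientations overlapped, with means of -1.51 with the mutant in Cy5 and -1.67 with the mutant in Cy3. The fit placed Mest at -1.59 (standard error 0.13), or 0.332 of the wild-type level with a 95% confidence interval from 0.266 to 0.414. The SD over the 6 arrays was 0.28. In the fit over all 17476 tested probes Mest did not pass after Benjamini-Hochberg adjustment (limma, adjusted p = 0.60). Its unadjusted p of 3.4e-05 was the lowest of all, but rests on the values from which the direction was read and is given as a description. The array has 1 Mest probe, and the sources used here do not say whether it lies inside the deleted exons. In these bulk samples, fewer cells with the transcript and less transcript per cell cannot be told apart.

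The pair of arrays that shared wild type 8 gave the lowest Mest ratios, with a mean of -1.93, against -1.43 for wild type 2 and -1.42 for wild type 9. The gap between the mutants of a pair was 0.14, 0.29 and 0.047 for wild types 2, 8 and 9. Mutant and wild-type differences cannot be told apart in these ratios, and with 3 wild types the difference between pairs was not tested. Without both arrays of wild type 8 the fitted Mest ratio was -1.42.

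**Figure D1:**
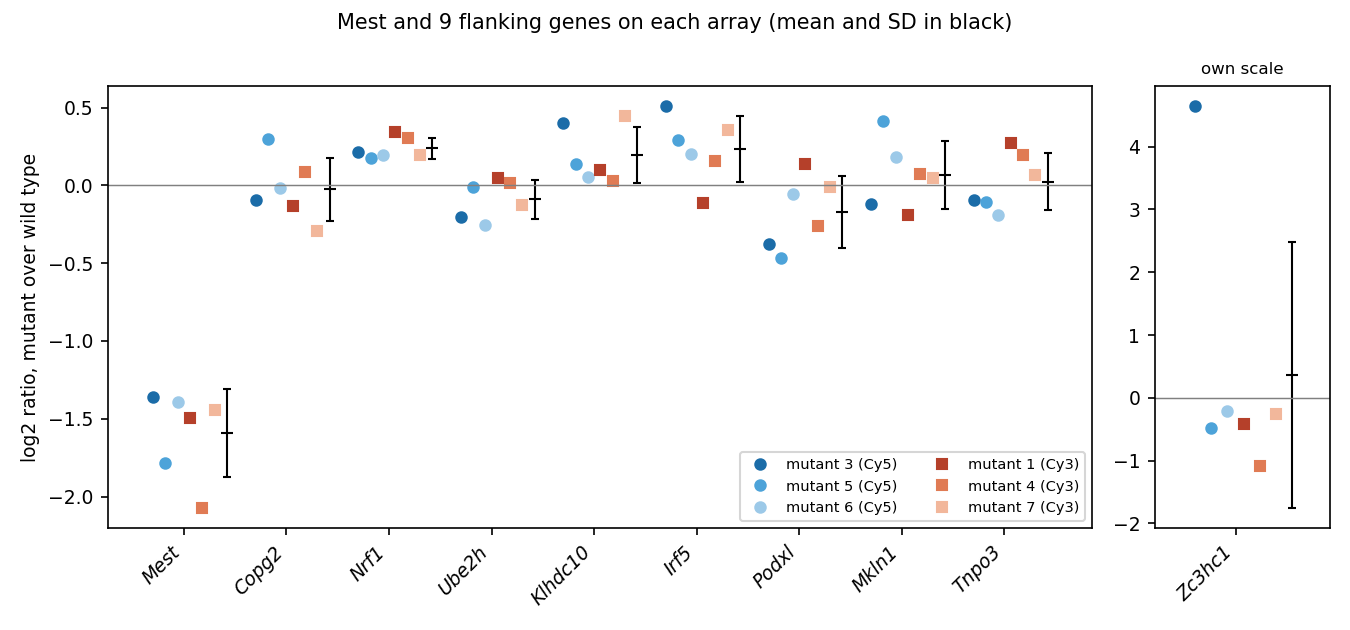
Log2 ratio of mutant over wild type for Mest and 9 flanking genes on each of the 6 arrays, with circles for the mutant in Cy5, squares for the mutant in Cy3 and the mean and SD of the 6 arrays in black. Zc3hc1 has a scale of its own, and Tnpo3 is the mean of its probes. Mest sits between -2.07 and -1.36, and the 8 other genes of the left panel between -0.46 and 0.51.

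The position of Mest within an array was low but not extreme. Between 2.55% and 9.57% of the probes of an array had a lower ratio than Mest, the smallest share in mutant 4 and the largest in mutant 5. On the array of mutant 5 the 5th percentile of all probes was -3.40, well below Mest, whereas on that of mutant 4 it was -1.39, above Mest. Over the fit, 107 probes had a lower ratio than Mest, of which 12 had values on all 6 arrays. Of 13531 probes with values on all arrays, Mest was the 1 probe below -1 on all 6, and 0 probes lay above 1 on all 6. The fold and the reading of direction used here were set on Mest, so this count is a description and no test.

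**Figure D2:**
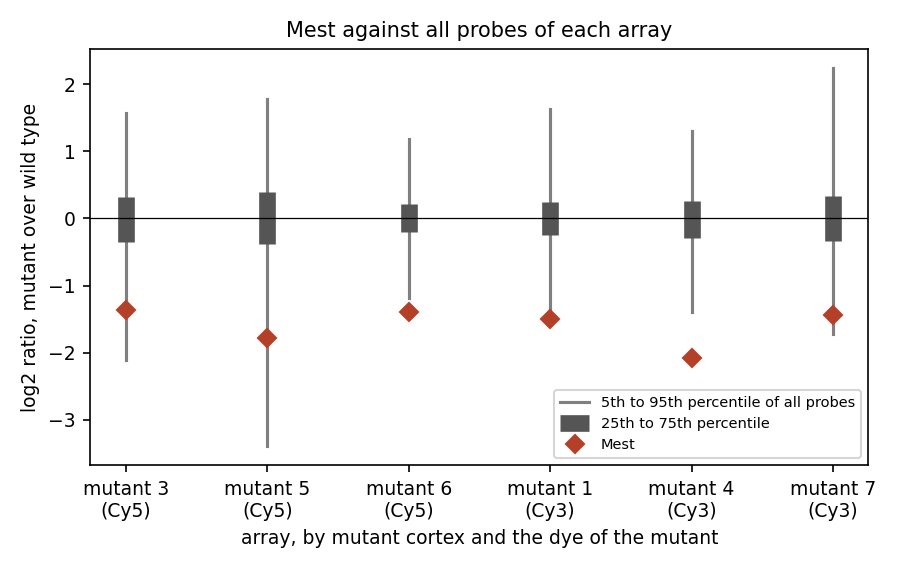
Log2 ratio of Mest (diamonds) on each array beside the spread of all probes of that array, drawn as the 5th to 95th percentile (thin line) and the 25th to 75th percentile (thick bar). Mest lies below the 25th percentile on every array and below the 5th percentile on the arrays of mutants 6, 1 and 4.

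The probes whose 6 ratios came nearest to those of Mest were at a large distance. Over 10955 probes with 1 gene name and values on all arrays, the root mean square difference from Mest was 0.85 for Fasl, which encodes the ligand of the death receptor Fas, 0.90 for the olfactory receptor gene Olfr1383, 0.91 for Fem1c, 0.966 for Lrguk, 0.966 for Col15a1, a collagen gene of basement membranes, and 0.97 for Obp1a. Fasl ranged from -2.62 to -0.14 over arrays, and Fem1c from -2.76 to -0.031. Lrguk also lies on chromosome 6, farther from Mest than the neighbours described below, and had ratios from -1.73 to -0.085. Its order over the arrays ran against that of Mest, with a Pearson correlation of -0.90 over 6 arrays that share wild types, as did that of Obp1a at -0.71. The correlations were 0.19 for Fasl, 0.34 for Olfr1383, 0.53 for Col15a1 and 0.72 for Fem1c. The Lrguk ratio nearest to 0 was on the array of mutant 4, where Mest was lowest. None of the 6 passed adjustment (limma, adjusted p = 0.90 for each).

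Copg2, the gene that adjoins Mest, lay around 0. Its ratios were -0.095, 0.30 and -0.015 in mutants 3, 5 and 6 and -0.14, 0.088 and -0.29 in mutants 1, 4 and 7. It was above 0 in both mutants set against wild type 8 and below 0 in the other 4. The fitted ratio was -0.025 with a 95% confidence interval from -0.28 to 0.22, that is, from 0.826 to 1.17 of the wild-type level (limma, adjusted p = 0.96). Its interval does not include the ratio of Mest. Its sign is not settled, since it was 0.23 when arrays were not centred and 0.23 when they were centred on Gapdh control spots, 0.012 without mutant 3 and 0.011 without mutant 7.

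Mest was lower than Copg2 on all 6 arrays by a value that no centring can change. The difference of Mest minus Copg2 within an array averaged -1.57 with an SD of 0.44 (n = 6), from -2.16 in mutant 4 to -1.15 in mutant 7. Against 7 of the other members the mean difference was between -1.42 (Podxl) and -1.83 (Nrf1). Against Zc3hc1 it was -1.96 over all arrays but -1.15 (SD 0.12, n = 5) without mutant 3, the smallest gap of all. Mest was the lower gene on 6 of 6 arrays in each case. The direction was read from Mest, so this is a description and no test.

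The genes whose 6 ratios came nearest to those of Copg2 were much closer to it than any gene was to Mest. They were Trappc2, Ypel5 and Ilf2, with root mean square differences of 0.030, 0.045 and 0.049 and Pearson correlations of 0.99, 0.97 and 0.97 over the same 6 arrays. Because these genes were picked as the nearest of 10955 probes, the high correlations follow from the choice. Trappc2 encodes a subunit of a vesicle tethering complex and Ilf2 an RNA-binding protein. Their fitted ratios of -0.028, -0.023 and -0.032 lay near 0 like that of Copg2, as do those of most probes.

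Of the transcription regulators among the members, Nrf1, nuclear respiratory factor, which drives genes of mitochondrial function, was above 0 in every mutant. Its ratios were 0.22, 0.18 and 0.19 in mutants 3, 5 and 6 and 0.34, 0.30 and 0.19 in mutants 1, 4 and 7. The values kept within 0.16 of each other, and the SD of 0.068 was smaller than that of all but 0.7% of tested probes, where the median SD was 0.41. The fitted ratio of 0.24 with a standard error of 0.071 corresponds to 1.18 times the wild-type level (95% confidence interval 1.04 to 1.34). It had an unadjusted p of 0.0186, ranked 180 of 17476, and did not pass adjustment (limma, adjusted p = 0.90). It stayed above 0 in all 20 alternative analyses, between 0.20 and 0.50, where the upper end comes from centring on the Gapdh spots.

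Irf5, an interferon regulatory factor of innate immunity, had ratios of 0.51, 0.29 and 0.20 in mutants 3, 5 and 6 and -0.11, 0.16 and 0.36 in mutants 1, 4 and 7. It was above 0 on 5 of 6 arrays, and mutant 1 was the exception. It fitted at 0.23 (standard error 0.11), with an interval from -0.049 to 0.52 (limma, adjusted p = 0.90).

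Klhdc10, Ube2h and Mkln1 act in or near protein ubiquitination. Klhdc10, a substrate receptor of a cullin ubiquitin ligase, was above 0 on all 6 arrays, at 0.40, 0.14 and 0.053 in mutants 3, 5 and 6 and 0.10, 0.031 and 0.45 in mutants 1, 4 and 7. The highest values, in mutants 3 and 7, came from different dye orientations and different wild types. Its fitted ratio was 0.19 with an interval from -0.085 to 0.47. Ube2h, a ubiquitin-conjugating enzyme, had -0.20, -0.012 and -0.26 against 0.045, 0.015 and -0.13 in the same order, and fitted at -0.090 with an interval from -0.29 to 0.11. Mkln1, muskelin, a component of the CTLH ubiquitin ligase, had -0.12, 0.42 and 0.18 against -0.19, 0.076 and 0.046, and fitted at 0.068 with an interval from -0.19 to 0.33. Klhdc10 thus had the same sign on every array, while Ube2h and Mkln1 lay on both sides of 0.

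Podxl, which encodes the cell-surface sialomucin podocalyxin, was below 0 on 5 of 6 arrays. Its ratios were -0.38, -0.46 and -0.056 in mutants 3, 5 and 6 and 0.14, -0.26 and -0.013 in mutants 1, 4 and 7. The fitted ratio was -0.17 with an interval from -0.44 to 0.094 (limma, adjusted p = 0.90), and it was 0.080 with arrays not centred and 0.086 with arrays centred on Gapdh control spots.

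Zc3hc1, a zinc finger protein of the nuclear pore basket, differed from the other members in its spread. It had a ratio of 4.65 in mutant 3, a mutant signal 25.1 times that of wild type, and -0.49, -0.20, -0.42, -1.09 and -0.26 in mutants 5, 6, 1, 4 and 7. On the array of mutant 3 only 57 probes had a higher ratio. The fitted ratio of 0.37 had a standard error of 0.83 and an interval from -1.72 to 2.45. Without mutant 3 it was -0.45 (limma, adjusted p = 0.93), so that 1 array set the sign. Mutant 1, which was set against the wild type taken to be the same, gave -0.42.

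Tnpo3, transportin 3, a nuclear import receptor for splicing factors, had 10 probes, and these disagreed. Its 10 probes rest on 10 different sequence accessions of the annotation, and 11 of 15063 genes with a singly named probe have 10 or more, whereas 13995 have 1. Whether all 10 report the same transcript was not tested, so the gene value is uncertain. Fitted ratios ranged from -0.23 to 0.32, with 5 above and 5 below 0, and the lowest adjusted p was 0.90 (limma). The probe CG_Mm_EXT_3100758_1 had ratios of -0.92, -0.41 and -0.26 in mutants 3, 5 and 6 against 1.26, 0.62 and 1.61 in mutants 1, 4 and 7. Its sign went with the dye orientation, which cannot be told apart from the set of mutants in each orientation. The dye term of this probe did not pass (limma, adjusted p = 0.092). By contrast, the probe CG_Mm_EXT_3106398_1 kept between -0.23 and 0.26 with both orientations overlapping. The probe CG_Mm_EXT_3101510_1 lay between -0.58 and 0.45 on 5 arrays and at -1.60 in mutant 7. Averaged over probes, Tnpo3 had -0.091, -0.11 and -0.19 with the mutant in Cy5 and 0.27, 0.20 and 0.065 with the mutant in Cy3. In these averages the orientations did not overlap, and the fitted mean of 0.044 lay between them. That separation depended on the probe CG_Mm_EXT_3100758_1, since the averages of the other probes overlapped between orientations. The average of mutant 5 lacks the probe CG_Mm_EXT_3102599_1, which had no value there and was higher with the mutant in Cy5 on the other arrays.

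**Figure D3:**
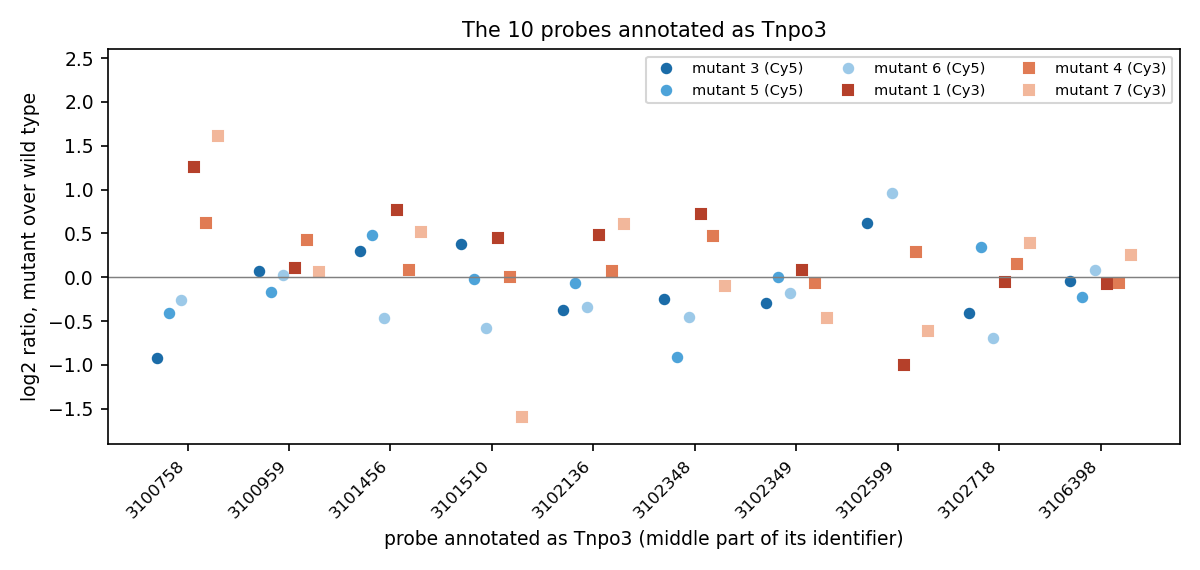
Log2 ratio of mutant over wild type for each of the 10 probes annotated as Tnpo3, with circles for arrays with the mutant in Cy5 and squares for the mutant in Cy3. The orientations do not overlap for 4 of the probes, of which 3 are higher with the mutant in Cy3 and 1 is higher with the mutant in Cy5.

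Among the members, 0 of 19 probes had an adjusted p under 0.05 by limma, and over all tested probes the share was 0%. The direction was read from Mest, so it is left out of the next counts. At an unadjusted p under 0.05 there was 1 of 18 other probes, that of Nrf1, where the share of all tested probes was 3.93%. Of 17 other probes with values on all arrays, 2 had the same sign on all 6, those of Nrf1 and Klhdc10, where the share of all such probes was 5.59%. Tnpo3 alone supplied 10 of the 18 probes and 9 of the 17, and 0 of its probes met either criterion. These shares are thus by probe and not by gene. The dye orientations did not overlap for 4 of 19 member probes, each of them annotated as Tnpo3, against 29.7% of all tested probes. The dye term passed an adjusted p of 0.05 for 0 of 19 (limma, lowest adjusted p 0.092), against 0.269% overall. Besides Mest, 6 of the members had a gene value above 0 and 3 below, with a median of 0.068. Of all 12576 genes, 6319 were above and 6257 below 0, with a median of 0.0012. The 6 include Zc3hc1, which was below 0 on 5 of 6 arrays, and Tnpo3, with 5 probes above and 5 below 0. The shift of 0.26 in the median of all probes without centring exceeds most of the gene values of these members, so that they hold only against the remaining probes on each array.

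A wider look at the region took all protein-coding genes whose start lies within 2 Mb of that of Mest in the same gene table. Of 39 such genes besides Mest, 29 had a probe with a single gene name and 23 were tested, 20 on one side of Mest and 3 on the other. The 23 include the 9 flanking members already described, so they are not a separate set of genes. Of the 23, 10 had a gene value above 0 and 13 below, with a median of -0.025, and 0 passed (limma). The median over these genes ranged from -0.14 to 0.072 over the 6 arrays. Of all genes tested, 6319 were above and 6257 below 0. At an unadjusted p under 0.05 there was 1 of the 23, Nrf1, a share close to the 3.93% of all tested probes.

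The tested genes nearest to Mest on the side away from Copg2 were Cep41, Cpa5 and Cpa4. Cep41, a centrosomal protein gene needed for tubulin modification in cilia, had ratios of -0.59, 0.36 and 0.16 in mutants 3, 5 and 6 and 0.014, 0.32 and -0.065 in mutants 1, 4 and 7, with a gene value of 0.034. Cpa5, a metallocarboxypeptidase gene, had -6.50, -0.44 and -0.50 against 0.55, -4.39 and 2.41. Its gene value of -1.48 was the lowest of the 23 and nearest to that of Mest, but its values spanned both signs (limma, adjusted p = 0.90). Cpa4, of the same family, had values on 4 arrays, from -0.96 to 1.68, and a gene value of 0.46. The genes nearest on the other side were Copg2, Mkln1 and Podxl, described above.

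The largest positive value of the region was that of the filamin gene Flnc, 0.77, from 4 arrays between -3.57 and 4.32. It was followed by Cpa4 and Zc3hc1. After Cpa5 the lowest were the leptin gene Lep at -0.26 on 4 arrays and Lrrc4, a synaptic adhesion gene, at -0.19. Lrrc4 had -0.99 in mutant 3 and between -0.13 and 0.047 in the other mutants. The extreme gene values of the region thus came from genes whose arrays disagreed by several log2 units or from a single array. Mest kept between -2.07 and -1.36, but the direction was read from Mest, so its place beside these genes is a description and no test.

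**Figure D4:**
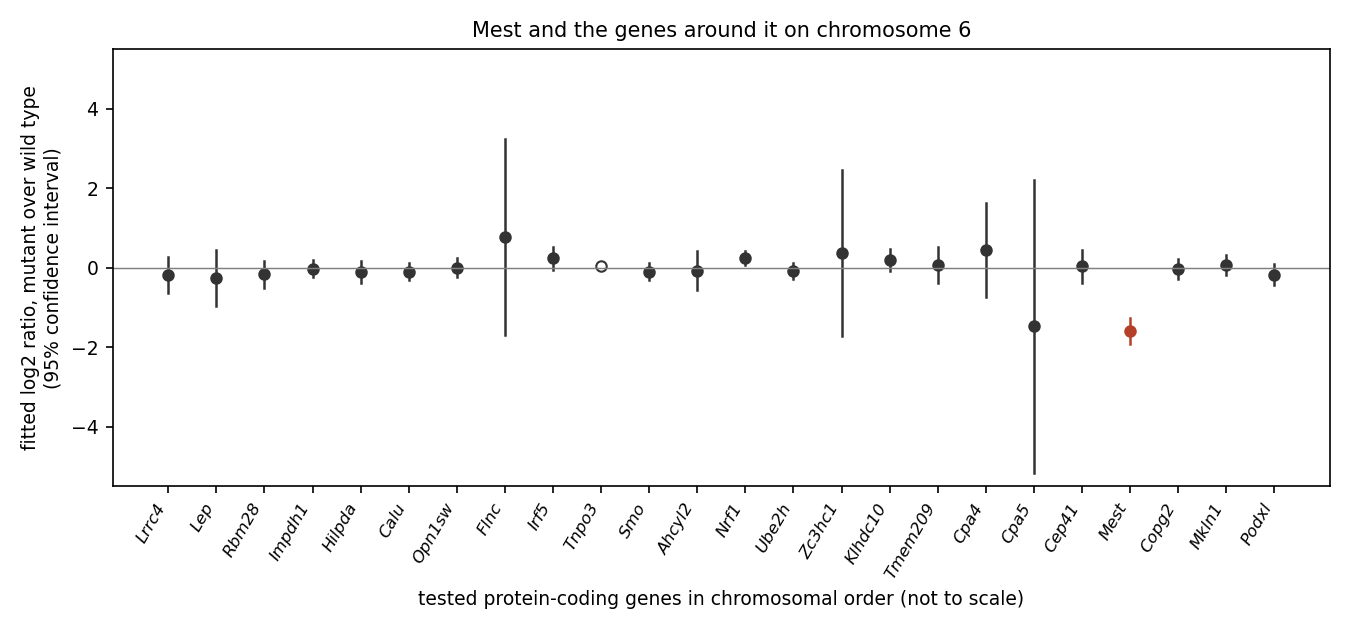
Fitted log2 ratio of mutant over wild type for Mest and the 23 tested protein-coding genes around it, in chromosomal order and not to scale, with 95% confidence intervals. Tnpo3 (open circle) is the mean of 10 probes and has no interval, the interval of Mest runs from -1.91 to -1.27, and that of Nrf1, from 0.058 to 0.42, is the only other one drawn that leaves out 0.

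Markers of cell types that a dissected cortex could contain were followed beside Mest, which is strongly expressed in embryonic mesenchyme. The mean of 8 measured genes of mesenchyme and meninges ranged from -0.17 to 0.22 over arrays, with 6 genes above and 2 below 0. That of 7 cortical genes ranged from -0.10 to 0.15, with 2 genes above and 5 below 0. The 4 measured red blood cell genes were all below 0, with array means from -0.45 to -0.13. The means of 5 endothelial and 3 choroid plexus genes ranged from -0.11 to 0.13 and from -0.26 to 0.19, and that of 5 ventral telencephalic genes from -0.99, in mutant 7, to 0.18. Endothelium had 4 genes above and 1 below 0, choroid plexus 1 above and 2 below, and ventral telencephalon 2 above and 3 below. On each array Mest was lower than each of the list means, but the direction was read from Mest, so this too is a description. The part of tissue makeup in the values of the members was not tested.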

How the data were processed

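The values are log2 ratios as the authors deposited them, 1 per probe and array. Per the labels, Trizol was used to extract the RNA. How the arrays were scanned, background-corrected, filtered and normalized is not stated there. The ceiling value of 16.61 (590 values) was treated as missing, ratios were turned to mutant over wild type and arrays were centred on their median probe, without the 232 Gapdh control spots. Probes with values on at least 4 arrays, 2 of each dye orientation, entered a fit in limma 3.58.1 under R 4.3.3 (an intercept for genotype, a dye term, the shared wild type as a random block with a correlation of 0.246, eBayes) followed by Benjamini-Hochberg adjustment at a 0.05 threshold. The fit was tested on simulated data. Where several probes carry 1 gene name, the gene value is the mean of their fitted ratios. Named genes are the members, the 3 nearest tested neighbours per side, the 3 highest and lowest values of the region, and the 6 and 3 probes nearest to Mest and Copg2. Names come from the platform's annotation, which is old. The members, lists and rules were chosen with earlier results of these data known. The spread between arrays covers mutants, wild types and hybridisation. With 2 wild types left the block correlation could not be estimated, and that of all arrays was used.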

Additional observations from a re-analysis of the deposited data

Results flagged for a closer look

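The Zc3hc1 ratio of 4.65 in mutant 3 stood far from the other 5 arrays, the nearest of which was at -0.20. The gap made up 0.846 of the range of the 6 arrays. It was the 1 such value among the 19 member probes, and the same criterion singled out an array for 9.03% of all 17476 tested probes.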

How the results depend on the processing

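Mest stayed below 0 in all 20 alternative analyses, from -1.78 (quantile normalization) to -1.33 (centred on Gapdh control spots), and from -1.64 to -1.49 when each array was left out in turn. It did not pass adjustment in any of them (limma, adjusted p from 0.11 without a dye term to 0.9995 without mutant 7), and 0 probes were called for genotype in each, where 223 to 2498 probes had an unadjusted p under 0.05. Nrf1, Irf5 and Klhdc10 kept their sign in all 20. The direction was read from Mest, so the sign of Mest in these analyses is part of that reading and no test.

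Other members changed sign without passing in either direction. With arrays centred on Gapdh control spots, Copg2, Ube2h and Podxl were 0.23, 0.17 and 0.086, and not centred 0.23, 0.16 and 0.080. With the mutant in Cy5 only, Copg2 was 0.063 and Tnpo3 -0.10. With the mutant in Cy3 only, Mkln1 was -0.023 and Zc3hc1 -0.59. Without both arrays of wild type 2, Copg2 was 0.019 and Zc3hc1 -0.51, without those of wild type 8 Mkln1 was -0.021, and without those of wild type 9 Copg2 was 0.039. With 1 array left out, Copg2 ranged from -0.084 to 0.012 and Zc3hc1 from -0.45 to 0.82.

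The median of the neighbouring genes was 0.23 with Gapdh centring and 0.23 without centring, both moved with all probes, whose median was then 0.26. With 1 array left out it ranged from -0.061 to 0.013. The dye term was called for 47 probes, but for 18 with Gapdh centring, 658 without centring, 31 with the ceiling value kept, 1 without the block, 150 after quantile normalization, 135 with values on all arrays, 0 without the arrays of wild type 2, 8 or 9, and 0 to 3 with 1 array left out. The cause of these differences was not tested. No signal level was used, so that dim spots could not be told from others.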
